A study of Mus musculus with 8 samples.

Results

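The abundance of every gene was described in the control mouse lung at E17.5, an embryonic stage shortly before birth. The members were all 19150 genes of the deposited table, taken in the 4 control libraries out of 8 libraries in the series. The controls were 2 libraries from female and 2 from male embryos of the C57BL background, made from whole embryonic lung without its bronchi, trachea and oesophagus. The other 4 libraries came from embryos of the same stage whose lung epithelium expressed a constitutively active TGF-β receptor 1, and they entered only where this is said. The labels do not say whether the libraries of a sex came from separate embryos, or whether the controls carried part of the receptor construct or a Cre driver. The 4 libraries were treated as 1 set throughout, and no groups were compared. Values are mean ± SD over these 4 libraries, and lists of 4 values run in the order control female 1, control female 2, control male 1 and control male 2.

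At this stage the mouse lung is in the saccular phase, when the distal airways widen into sacs and their walls thin. Distal epithelial progenitors become type 2 cells, which make and secrete surfactant, and flat type 1 cells, which form the surface for gas exchange. Around them lie fibroblasts and smooth muscle that lay down elastin and collagen, a capillary network, the pleural mesothelium and a first set of macrophages. A whole-lung library mixes the RNA of all these cells, so fewer cells of a type and less RNA per cell cannot be told apart in any level given here.

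The control libraries held 17561012 to 18421167 reads in genes. Every pair of libraries differed by more than sampling noise. The squared deviation of a gene's reads from the split set by library totals averaged 11.4 to 38.5 times that expected from counting. None was therefore a copy of another. Spearman's correlation across genes, which are not independent replicates, was 0.972 to 0.985 over the 6 pairs. The most distant pair was control female 2 and control male 1, with 587 genes at least 2-fold apart, and the closest was control female 1 and control male 2, with 46. Those first 2 libraries lay at opposite ends for many of the genes below, and the other 2 mostly lay between them.

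Sex-linked genes followed the labels in all 4 libraries. Xist, the RNA that silences an X chromosome in females, stood at 82.7, 84.6, 0.176 and 0.137 RPKM, and the Y-linked helicase Ddx3y at 0.0203, 0.00979, 9.95 and 8.54 RPKM. A different gene set control male 2 apart. Hprt, the X-linked enzyme of purine salvage, had 1105, 1100, 974 and 98 reads. In the libraries from mutant males it had 75 and 84 reads, and in those from mutant females 374 and 815. Control male 2 therefore lay near the mutant males at this gene and far from the other controls. The labels do not give the locus of the receptor construct, and the part of this library in the results was not tested beyond leaving it out, which is given under the dependence on processing.

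Levels spanned nearly the whole range that this depth can show. RPKM, reads per kilobase of gene length in a library scaled to a common depth, is used wherever genes are compared with each other. The median gene stood at 2.67 RPKM, with quartiles of 0.762 and 7.60. At least 0.1 RPKM was reached by 18430 genes (96.2%), at least 1 RPKM by 13518 (70.6%), at least 10 RPKM by 3755 (19.6%) and at least 100 RPKM by 238 (1.24%). Only 19 genes reached 1000 RPKM. The lowest total of any gene over the 4 controls was 5 reads and over all 8 libraries 28, so rarer genes were not in the table, and the lower end of this distribution is that of the deposited table.

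Abundance was concentrated in few genes. The 1275 genes with the most reads (6.66%) held 50% of all reads, and 514 genes (2.68%) held 50% of the summed RPKM. The 10 genes with the most reads took 4.38% of reads. The 10 highest by RPKM, a different set, took 14.5% of the summed RPKM. By their type in GENCODE M21, 14787 genes were protein-coding and took 97.6% ± 0.0858 of reads, 543 were lincRNA and took 0.645% ± 0.0908, and 1755 were processed pseudogenes and took 0.699% ± 0.0338. The 17 genes of the mitochondrial genome took 2.10% ± 0.138.

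**Figure D1:**
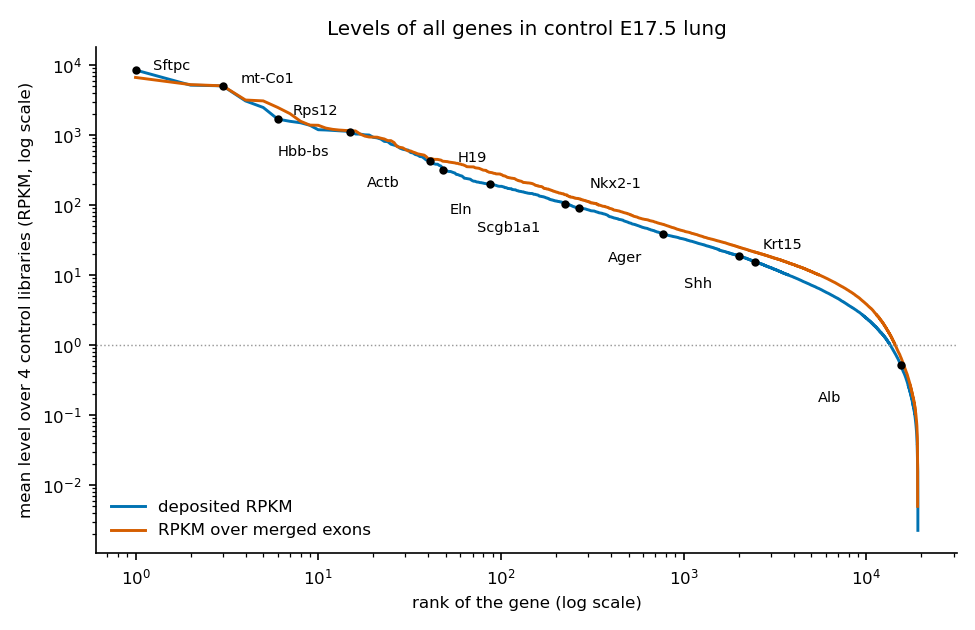
Mean level over the 4 control libraries against the rank of the gene, both on log scales, for the deposited RPKM (blue) and for RPKM over merged exons (red); black points mark genes named in the text at their deposited value. Sftpc leads at 8536 RPKM, the dotted line marks 1 RPKM, which 13518 genes reach, and the red line lies above the blue one over most of the ranks.

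A gene length enters every RPKM, and the deposited lengths were not those of the gene's exons laid together. Of 19086 genes matched by Ensembl ID to GENCODE M21, 15322 (80.3%) had a deposited length within 2% of the sum of exon bases over all their transcripts, while 4947 (25.9%) were within 2% of the merged exons, in which each base counts once. The deposited length was 1.4 times the merged one at the median gene, and at least 5 times in 193 genes. Genes with many annotated transcripts therefore look lower in deposited RPKM than per merged base. Ager, the receptor RAGE of type 1 cells, was given 19389 bases against 2141 merged, and its level was 39.1 RPKM (rank 770) as deposited and 354 RPKM (rank 66) over merged exons. Actb moved from 427 to 1264 RPKM, Fn1 from 28.0 to 167 and Fgfr2 from 8.09 to 45.7. In the other direction, Rps12, with a deposited length below its merged exons, moved from 1699 to 404 RPKM, and Sod1 from 442 to 72.5. Of the 100 highest genes 68 were shared between both scales. The value over merged exons is therefore printed as the merged RPKM beside the deposited one for a part of the genes. Where none is printed the 2 can still differ, and orders of genes are those of the deposited RPKM unless the merged one is named.

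Sftpc was the most abundant named gene per length in each of the 4 libraries. It encodes surfactant protein C, a small hydrophobic peptide of surfactant and a product of type 2 cells. The gene lies on chromosome 14 at 70520949 to 70524081 on the minus strand (GRCm38), typed as protein-coding. Its level was 8843, 6165, 11190 and 7944 RPKM, 8536 ± 2090 in the mean and 6687 in merged RPKM. Control male 1 was highest and control female 2 lowest, 1 SD or more from the mean on either side. By reads alone, without length, 3 genes lay close together: Eef1a1 at 7936 CPM (reads scaled to a common library total, with no length), mt-Co1 at 7844 and Sftpc at 6922. Eef1a1, which brings aminoacyl-tRNA to the ribosome, led in control female 1 and control male 2, mt-Co1 in control female 2 and Sftpc in control male 1.

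Mitochondrially encoded genes filled many of the next ranks. mt-Co1, the catalytic subunit of cytochrome c oxidase, stood at 5548, 5006, 5216 and 4513 RPKM, mt-Cytb of complex III at 3088 ± 266 RPKM and mt-Nd1 of complex I at 2489 ± 290. Control male 2 was lowest of the libraries in each of these 3 genes. Other members of the same list stood far lower: mt-Co2 at 35.4 ± 2.71 RPKM, mt-Co3 at 32.2 ± 4.36 and mt-Atp6 at 29.5 ± 1.48, although mt-Co2 and mt-Co3 encode partners of mt-Co1 in the same enzyme. Shared sequence was counted for each gene. In mt-Co2, mt-Co3, mt-Atp6, mt-Nd3 and mt-Nd4l, 98.0% to 100% of all 50-base windows also occur in transcripts of another annotated gene, and these 5 genes had levels of 9.46 to 35.4 RPKM. mt-Cytb, mt-Nd1 and mt-Nd6 share 0% and stood at 1579 RPKM or above. The 2 measures did not go together throughout: mt-Atp8 and mt-Tc share 0% as well but stood at 9.32 ± 4.85 and 11.5 ± 2.90 RPKM, and mt-Co1 and mt-Nd4 share 51.1% and 62.2% but stood at 5071 and 1036 RPKM. The sources used here do not say how the authors treated reads that match several genes, so levels of the genes with shared sequence are uncertain. The nuclear genes of the respiratory chain lay well below the high mitochondrial ones, with a median of 28.9 RPKM over 77 members, 75 of them above the median gene, and Cox8a at 184 ± 13.9.

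The protein synthesis machinery was the most abundant nuclear programme. The list of cytosolic ribosomal proteins was drawn by gene symbol. GENCODE M21 types some of its members as pseudogenes, among them Rps3a3, Rpl6l and Rps4l. Its 86 genes took 5.03% ± 0.450 of reads, with a median of 150 RPKM (merged 286), and 82 of them reached 10 RPKM. Their highest members by deposited RPKM were Rps12 at 1954, 1584, 1618 and 1640, Rps26 at 1719, 1388, 1412 and 1507 (merged 440), and Rplp1, a protein of the ribosomal stalk, at 1187 ± 141. In both Rps12 and Rps26 control female 1 was highest, and the summed RPKM of the whole list showed the same order of that library, with 28395 against 23355 to 23683 in the others. Not all members were high. Rpl13a stood at 3.35 ± 0.130 RPKM and Rpl24 at 0.708, where 24% and 51.8% of 50-base windows are shared with other genes. Shares of this size were also found in abundant members. The 72 members sharing 5% to 50% of their windows had a median of 150 RPKM. The 8 sharing 50% to 90%, Rplp1 among them, had a median of 115 RPKM. The 5 members sharing under 5% had a median of 166 RPKM, and the 1 sharing above 90% stood at 17.7. Of the 30 highest named genes, 7 shared at least 50% of their windows with other genes and 7 shared under 5%. Among elongation factors, Eef1a1 reached 1151, 984, 1030 and 995 RPKM (merged 3181) and Eef2, which moves the ribosome along the mRNA, 1006 ± 74.6. The 15 translation factors had a median of 67.5 RPKM.

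Genes of the translation machinery are known for a stretch of pyrimidines at the very start of their mRNAs, the 5′ terminal oligopyrimidine tract through which their translation is controlled. Start sites were read from RefSeq promoters (GRCm38.p6), which were found for 11266 protein-coding genes of the table. An unbroken run of at least 7 bases C or T was looked for on the gene's strand, starting from 5 bases before to 5 after the annotated start. Such a run was present in 23 of 61 genes of the ribosomal protein list (37.7%) and in 990 of all 11266 (8.79%). It was present in 6 of 36 (16.7%) of the other genes among ranks 1 to 100. The 3 abundant genes below carry such a run. Each line gives 45 bases before the annotated start and 20 from it, 5′ to 3′, with the run in capitals.
Rps26, chr10:128626487-128626551, minus strand: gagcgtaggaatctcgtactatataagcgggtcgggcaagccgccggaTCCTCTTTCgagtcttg
Rps24, chr14:24490633-24490697, plus strand: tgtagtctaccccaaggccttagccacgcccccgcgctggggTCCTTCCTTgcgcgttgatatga
Eef1a1, chr9:78481705-78481769, minus strand: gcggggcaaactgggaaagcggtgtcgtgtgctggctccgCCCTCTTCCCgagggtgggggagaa
These runs are 9, 9 and 10 bases long. Among the translation factors the run was found in 1 of 11 genes (9.09%), that of Eef1a1, a share near the overall 8.79%. A gene without a run has none at the annotated start, which can lie some bases from the start in use.

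Structural and carrier genes made up the rest of the highest ranks. Myl6, a light chain of non-muscle myosin, stood at 915 ± 95.3 RPKM (merged 193), Tmsb4x, which holds actin monomers, at 1007, 748, 826 and 685 RPKM, and Actb, cytoplasmic β-actin, at 416, 419, 433 and 441. Actb varied little between libraries and Tmsb4x more, with control female 1 highest. Vim, the intermediate filament of mesenchyme, stood at 148 ± 8.03 RPKM. In the whole cytoskeleton list 17 of 18 members reached 10 RPKM, with a median of 109.

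The epithelial lists checked the labelled tissue first at its surfactant-making cells. Of 24 type 2 genes, 23 reached 1 RPKM, 21 reached 10 and 7 reached 100, with a median of 54.5 RPKM (merged 86.6) against 2.67 for all genes. After Sftpc came Cxcl15, a chemokine of the lung, at 190, 115, 412 and 162 RPKM, and Slc34a2, which takes phosphate back up from surfactant, at 173, 117, 331 and 167. In both, control male 1 stood well above the other 3 libraries and control female 2 was lowest. The same held for Lamp3, of the lamellar body membrane, at 134, 92.5, 232 and 108 RPKM, and for Sftpa1, the collectin surfactant protein A, at 126, 82.7, 220 and 105. Lyz2, a lysozyme that macrophages also make, stood at 142, 79.7, 286 and 94.2 RPKM. The other surfactant proteins were much lower than Sftpc per deposited length: Sftpd, the second lung collectin, at 44.8, 15.2, 123 and 42.5 RPKM, and Sftpb, which is needed for surfactant films, at 38.2, 28.0, 47.6 and 32.3. Sftpd ran over a wider range than Sftpb between the same libraries. The Sftpb entry was among the 64 genes with no match in GENCODE M21. Its deposited length could therefore not be checked, and its level has no merged value. Abca3, which loads phospholipid into lamellar bodies, stood at 16.1 ± 4.18 RPKM (merged 55.6) and Etv5, a transcription factor of both tip progenitors and type 2 cells, at 38.1, 44.9, 35.5 and 38.4. Etv5 and Egfl6, at 93.6, 91.8, 92.6 and 101 RPKM, were the members of smallest spread between libraries. In 20 of the 22 members with at least 5 CPM control male 1 was highest, and in 21 control female 2 was lowest. Over all 12325 genes of at least 5 CPM these counts were 3301 and 3842.

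Some of these promoters share a simple feature. TATAAA, the core of a TATA box, lay between 40 and 15 bases before the start on the gene's strand in 4 of 17 type 2 genes with a RefSeq promoter (23.5%) and 2 of 11 club cell genes (18.2%), against 159 of 11266 (1.41%) overall; on either strand it was 4, 2 and 186 (1.65%). It was found in 0 of 16 type 1 genes. The share of CpG in the 300-base promoters had a median of 2.01% in the type 2 list and 6.69% overall. The lists are small, and a match is a description of letters, not a site known to be used. Sftpa1 and Cxcl15 are shown because they carry the motif, in capitals, and Lyz1 because its start region is the same in its neighbour Lyz2; the lines have the same layout as above.
Sftpa1, chr14:41131743-41131807, plus strand: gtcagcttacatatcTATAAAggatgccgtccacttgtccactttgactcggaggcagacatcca
Cxcl15, chr5:90794489-90794553, plus strand: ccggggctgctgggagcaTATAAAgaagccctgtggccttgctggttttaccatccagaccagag
Lyz1, chr10:117292849-117292913, minus strand: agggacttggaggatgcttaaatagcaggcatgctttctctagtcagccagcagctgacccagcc
All 65 of these bases are identical at Lyz2, chr10:117282253-117282317 on the minus strand, and 201 of 300 are over the whole promoters. Lyz1 nevertheless ran at 51.9, 13.7, 244 and 30.8 RPKM, a far wider range than Lyz2, with control male 1 alone above 100. The transcripts share 16.1% and 15.4% of their 50-base windows with other genes.

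Type 1 cell genes were the next highest epithelial list. All 19 that were measured reached 1 RPKM, 14 reached 10 and 4 reached 100, with a median of 28.7 RPKM (merged 52.8). Pdpn was not analysed here. Emp2, a small membrane protein of type 1 cells, stood at 202, 142, 280 and 194 RPKM (merged 81.5), Gprc5a, an orphan receptor of lung epithelium, at 171, 122, 237 and 160, and Cldn18, a tight junction claudin, at 104, 87.2, 107 and 105. As in the type 2 genes, control male 1 was highest and control female 2 lowest in all 3, though by little in Cldn18. Hopx, a homeodomain cofactor of type 1 cells, stood at 78.0, 46.9, 74.9 and 61.1 RPKM (merged 155), and Ager at 39.4, 24.2, 55.5 and 37.4. Aqp5, a water channel of the mature alveolar surface, was low and wide, at 6.52, 2.44, 18 and 5.85 RPKM. Across the 19 genes control male 1 was highest in 16 and control female 2 lowest in 18, against 3301 and 3842 of all 12325 genes of at least 5 CPM.

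Airway genes were present although the labels give the bronchi as removed. Among club cell genes, Scgb3a2, a secretoglobin made by the conducting airway before birth, stood at 189, 115, 228 and 213 RPKM (merged 419). Scgb1a1, the club cell secretory protein, stood at 96.3, 27.3, 216 and 79.4, and Cbr2, a carbonyl reductase, at 111, 39.6, 177 and 108. Control female 2 was lowest and control male 1 highest in all 3, with the widest range in Scgb1a1. The median of 16 club genes was 6.93 RPKM, since Muc5b, Pon1 and other genes of the list were near or below 1. Scgb3a1 was not analysed here. Ciliated cell genes had a median of 3.46 RPKM, close to that of all genes, with 20 of 22 at 1 RPKM or above. Foxj1, the master factor of motile cilia, stood at 21.8, 15.7, 23.7 and 23.9 RPKM, Sec14l3 at 37.6 ± 11.4, and the axonemal dynein Dnah5 at 1.77 ± 0.535. Control female 2 was lowest in 20 of the 22 genes, against 3842 of all 12325 genes of at least 5 CPM. Basal cell genes that were measured were mostly low, and Krt5, Krt14 and Dapl1 were not analysed here. Trp63, the defining factor of basal cells, stood at 0.0184 ± 0.00973 RPKM and Krt17 at 0.0722, while Krt15 at 15.6 ± 5.10 and Snai2 at 40.3 ± 9.72, a factor also of mesenchyme, were the only 2 of 6 at 1 RPKM or more. Of neuroendocrine genes, the peptide gene Calca stood at 0.675 RPKM, while Nnat at 25.2 (merged 117) and Cplx2 at 11.6 were the members above 10. Chga, Resp18, Snap25 and Insm1 were not analysed here.

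Genes of lung epithelium in general had a median excess CV, the spread between libraries beyond counting error, of 8.43%, against 30.4% in the type 2 list. Krt8, a keratin of simple epithelia, stood at 191, 160, 178 and 184 RPKM, Epcam at 99.0, 101, 69.5 and 94.4, and the adherens cadherin Cdh1 at 66.4 ± 4.60. Here the libraries were closer together, and control male 1 was lowest in Epcam. The 18 genes had a median of 21.5 RPKM, and their list score, the mean over members of log2(CPM + 0.1) minus each gene's own mean over the 4 libraries, ran only from -0.10 to 0.09, while that of type 2 genes ran from -0.64 to 0.77. Genes of distal tip progenitors were led by Id2, an inhibitor of basic helix-loop-helix factors, at 159, 197, 172 and 119 RPKM, and Nkx2-1, the factor that specifies lung epithelium, at 83.4, 85.5, 94.3 and 104. Sox9, which marks the growing tips, stood at 10.9 ± 2.31 RPKM, with 10.3, 13.6, 8.09 and 11.4. In Sox9 control female 2 was highest and control male 1 lowest, the reverse of the type 2 genes. Lin28b, a gene of early progenitors, stood at 0.0874 ± 0.0453 RPKM.

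**Figure D2:**
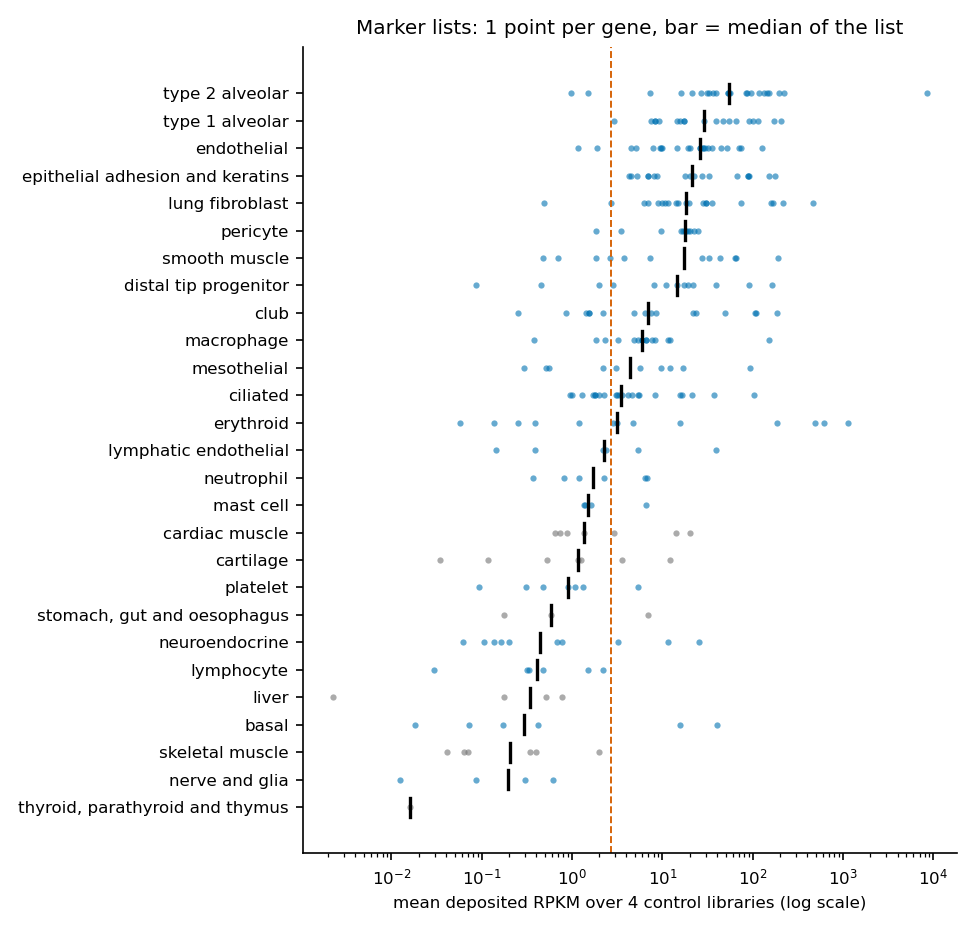
Mean deposited RPKM over the 4 control libraries, on a log scale, of each gene (1 point) in the marker lists of lung and blood cell types (blue) and of other tissues (grey); black bars are list medians and the dashed line is the median of all genes, 2.67 RPKM. The type 2 list has the highest median, 54.5 RPKM, and the list of thyroid, parathyroid and thymus, with 1 gene, the lowest.

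Mesenchymal genes came close behind in level. Mfap4, a protein of elastic microfibrils, was the highest fibroblast gene at 499, 377, 514 and 483 RPKM (merged 1170), and Tcf21, the factor of distal lung mesenchyme, stood at 248, 173, 250 and 186 (merged 112). Over merged exons Col3a1 at 218, Col1a1 at 176, Fn1 at 167 and Npnt at 143 lay above Tcf21. Control female 2 was lowest in Mfap4 and Tcf21. Elastin, Eln on chromosome 5 at 134702593 to 134747323 (minus strand), stood at 175, 135, 282 and 199 RPKM (merged 338) and at 2737 CPM was the 8th gene by reads, with control male 1 highest. Its partners in the elastic fibre included the cross-linking oxidase Lox at 90.3 ± 8.16 RPKM (merged 153) and the fibrillins Fbn2, the fetal form, at 75.3, 92.7, 53.0 and 79.1, and Fbn1 at 29.1 ± 2.57. Fbn2 was lowest in control male 1, where Eln was highest. Among collagens, Col1a1 stood at 152, 176, 156 and 159 RPKM, Col3a1 at 170, 191, 160 and 150, and Col4a1, of basement membranes, at 148, 132, 184 and 144 (merged 353). The fibrillar genes were highest in control female 2 and Col4a1 in control male 1. All 18 collagen genes exceeded 6 RPKM, with a median of 33.4 (merged 70.9). The basement membrane list was led, by deposited RPKM, by Sparc, a collagen-binding protein, at 196 ± 11.4 RPKM (merged 396), Nid1 at 114 ± 6.27 and the laminin chain Lamc1 at 113 ± 3.84. Lama1, the laminin chain of early embryos, was the lowest at 1.18.

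Smooth muscle and pericyte genes had medians of 17.3 and 17.6 RPKM. Acta2, smooth muscle actin, stood at 218, 204, 181 and 165 RPKM, Tagln at 69.6, 62.3, 63.0 and 56.3, and Myh11, the smooth muscle myosin, at 33.7, 33.6, 30.6 and 34.2. Myocd, the coactivator that drives this programme, was low at 0.475 ± 0.10 RPKM. Pericyte genes lay between 1.85 and 25 RPKM in all 11 members, with Pdgfrb, the receptor that recruits these cells, at 17.6 ± 1.97. The mesothelial list was uneven: Msln, the mesothelial surface protein, stood at 97.3, 45.7, 146 and 79.9 RPKM, while Wt1, the mesothelial transcription factor, stood at 0.294 ± 0.0835. Upk3b, an uroplakin of mesothelium, stood at 21.2, 16.2, 20.5 and 8.93 RPKM, lowest in control male 2.

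Endothelial genes had a similar summed level in the 4 libraries. All 23 reached 1 RPKM and 15 reached 10, with a median of 26.0 RPKM and a summed level of 656, 671, 700 and 673. Cdh5, the cadherin of endothelial junctions, stood at 113, 125, 130 and 135 RPKM, Cd93 at 72.6, 76.5, 76.2 and 72.9, and Cldn5 at 65.1, 60.7, 81.3 and 72.2. The 4 libraries lay within narrow limits in the first 2. Of the 22 members of at least 5 CPM, control male 1 was highest in 14, against 3301 of all 12325 such genes. Car4, a carbonic anhydrase of specialised alveolar capillaries, was low and wide, at 1.17 ± 1.43 RPKM, with an SD above its mean. In lymphatic vessels, Lyve1 stood at 39.1 ± 5.36 RPKM and Prox1, the factor that specifies them, at 0.384 ± 0.0542.

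Blood and immune cells contributed unevenly. Adult β-globin Hbb-bs stood at 1002, 1100, 1417 and 987 RPKM, α-globin Hba-a1 at 601, 522, 844 and 489, and Hba-a2 at 103, 263, 145 and 236. Control male 1 was highest in the first 2 genes but not in Hba-a2, where control female 2 was. Hba-a1 shares 72.3% and Hba-a2 89.3% of its 50-base windows with another gene, chiefly each other, and the split between them is uncertain. Hbb-bs shares 53.2% of its windows with Hbb-bt, another β-globin gene, and that split is uncertain too. The embryonic globin Hbb-y stood at 4.68 ± 2.02 RPKM, and Klf1 and Gata1, the factors of red cell precursors, at 0.392 and 0.251. Macrophage genes had a median of 5.95 RPKM, with the complement gene C1qa at 12.8, 11.3, 12.8 and 9.49 and Csf1r, the receptor for their growth factor, at 4.79 ± 0.529. Control male 2 was lowest in C1qa. Lymphocyte genes were near the floor: of 13 genes listed, 6 were measured, with a median of 0.404 RPKM, and the leukocyte marker Ptprc stood at 0.333 ± 0.101.

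Lists of other tissues were low. Of 4 measured liver genes none reached 1 RPKM, and Alb, serum albumin, stood at 0.534, 0.535, 0.364 and 0.624. None of 4 nerve and glia genes reached 1 RPKM. Skeletal muscle genes had a median of 0.208 RPKM, with Mylpf alone above 1 at 1.96 ± 0.279, and the single thyroid gene measured, Tg, stood at 0.0159. Cardiac genes were higher: Myl7, the atrial myosin light chain, stood at 8.06, 30.7, 18.8 and 22.6 RPKM, and Myh6, the atrial myosin heavy chain, at 0.541, 5.37, 1.80 and 3.99. Control female 1 was lowest in both. The 7 cardiac genes had a median of 1.37 RPKM, a summed level of 18.8, 60.0, 35.2 and 48.3, and a list score from -0.94 to 0.50. Cardiomyocytes are known to ensheath pulmonary veins in the mouse. Cartilage genes had a median of 1.17 RPKM, with Col2a1, the collagen of cartilage, at 0.118 ± 0.0601 and Acan at 0.0349. Hapln1 at 12.2 ± 1.96 was the only cartilage gene above 10.

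Transcription factors of the lung had a median excess CV of 12.8%. Of 57 listed, 52 reached 1 RPKM, 34 reached 10 and 3 reached 100, with a median of 12.1. By deposited RPKM the mesenchymal factor Tcf21 was highest at 214 ± 40.5 RPKM (rank 74), then Id2 at 162 ± 32.8 (rank 122), Tbx2, a T-box factor of lung mesenchyme, at 102, 111, 120 and 125 (rank 201), and Nkx2-1 (rank 267). Over merged exons the order was another, with Nkx2-1 at 163 RPKM, Hopx at 155, Tbx2 at 115, Tcf21 at 112 and Id2 at 84.5. Foxf1, a target of hedgehog signals in mesenchyme and endothelium, stood at 48.9, 52.4, 57.3 and 52.6 RPKM, and Gata6, an epithelial factor, at 22.4, 22.0, 21.8 and 21.7. Gata6 was nearly level across libraries. Epas1, Klf5, Cebpb, Meox2, Id1 and Wwtr1 lay between 26.6 and 40.3 RPKM. Sox2, of the conducting airway, stood at 3.39 ± 0.739 RPKM, below Sox9 of the tips, and Sox2 and Sox9 had merged values of 3.40 and 10.9. Of the Hox genes 18 of 35 listed were measured, and Hoxa5, known to be needed for lung development, was far above the rest at 40.1, 43.8, 40.7 and 41.3 RPKM. The next was Hoxb4 at 7.36 ± 0.820, and the 7 lowest were below 1 RPKM. Of the 18, 3 lie outside the A and B clusters (Hoxd9, Hoxd8 and Hoxc4), and each of these stood at 0.118 RPKM or below.

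Receptors and ligands of the main developmental pathways were mostly between 1 and 50 RPKM. In TGF-β signalling all 15 genes lay between 2.06 and 28.0 RPKM. The ligands Tgfb2, Tgfb3 and Tgfb1 stood at 17.3 ± 1.6, 13.2 ± 0.745 and 6.0 ± 0.682 RPKM. The type II receptor Tgfbr2 stood at 27.2, 25.9, 29.8 and 28.9, and the type I receptor Tgfbr1 at 7.04, 7.91, 6.56 and 6.26 (merged 13.3). Tgfbr2 was thus above Tgfbr1 in every library. The signal carriers Smad4, Smad3 and Smad2 stood at 14.6, 14.4 and 5.34 RPKM and the inhibitor Smad7 at 6.52. In BMP signalling, Bmp4 stood at 14.6 ± 1.05 RPKM, its receptor Bmpr1a at 18.7 ± 1.58 and the target genes Id3 and Id1 at 38.3 and 29.6.

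In the hedgehog pathway, the epithelial ligand Shh stood at 18.1, 17.7, 18.8 and 21.1 RPKM, and its targets Hhip, which binds and restrains the ligand, and Gli1, a transcription factor, at 26.3, 24.1, 34.0 and 24.7 and at 11.9, 20.8, 10.3 and 16.7. Shh varied little, while Gli1 was highest in control female 2 and lowest in control male 1. In FGF signalling the mesenchymal ligand Fgf10 stood at 11.2, 10.6, 11.9 and 9.39 RPKM and its epithelial receptor Fgfr2 at 8.09 ± 0.654 (merged 45.7), while Fgf9 was near the lower end at 1.11. Among feedback and target genes Etv5 led at 39.2 ± 4.04 RPKM and Dusp6, a phosphatase for ERK, stood at 34.5 ± 1.87. In Wnt signalling Ctnnb1, β-catenin, stood at 51.0 ± 4.13 RPKM, the mesenchymal ligand Wnt2 at 32.7, 30.7, 30.1 and 27.5, the epithelial ligand Wnt7b at 3.66 ± 0.573, and the target Axin2 at 4.53. Lef1 and Lgr5 were below 1. The Notch list had a median of 7.74 RPKM, with the target Hes1 highest at 17.9, 16.9, 19.7 and 22.4 and Notch3, of mural cells, at 18.4 ± 0.649.

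Growth factors of vessels and of body growth differed in how steady they were. Vegfa, the main angiogenic factor and a product of type 1 cells, stood at 26.6, 17.7, 42.8 and 27.7 RPKM (merged 108), whereas its receptor Kdr stood at 28.3, 27, 31.3 and 26.9. Vegfa had the order of the type 1 genes and Kdr was nearly level. The IGF list had a median of 32.7 RPKM, with Igf2r, which clears IGF2, at 85.3 ± 4.31 and Igf2 at 52.8, 64.4, 42.5 and 57.2 (merged 171). H19, the non-coding RNA next to Igf2 on chromosome 7, was the most abundant long non-coding RNA at 342, 368, 215 and 367 RPKM (merged 836). It was lowest in control male 1, as Igf2 was. Malat1, a nuclear RNA, stood at 90.9, 89.7, 117 and 145 RPKM. Other imprinted growth genes included Grb10 at 70.2 ± 12.3, Mest at 69.6 ± 4.30 and Cdkn1c at 28.3 ± 2.86, while Dlk1 stood at 0.0628.

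The lung before birth secretes fluid and prepares to absorb it. Slc12a2, the chloride loader of secretion, stood at 65.4 ± 4.50 RPKM and the chloride channel Cftr at 2.04 ± 0.493 (merged 7.15). The sodium channel subunits of absorption stood at 17.4 ± 5.43 for Scnn1g, 8.09 ± 3.25 RPKM for Scnn1a (merged 35.8) and 4.22 ± 1.07 for Scnn1b. Scnn1a stood at 7.18, 4.16, 11.9 and 9.14, lowest in control female 2 and highest in control male 1. Aqp1, the water channel of capillaries, stood at 112, 66.0, 150 and 105 RPKM. Glucocorticoids are known to drive this preparation: their receptor Nr3c1 stood at 12.4, 10.9, 11.9 and 10.4 RPKM, and Hsd11b1, which activates them in tissue, at 18.6, 8.25, 23.6 and 13.7. The receptor was level, while Hsd11b1 and the target Klf9, at 15.5, 8.11, 23.1 and 15.4 RPKM, were lowest in control female 2.

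Lipid and redox genes included some of the highest enzymes. Scd2, a stearoyl-CoA desaturase, stood at 320, 254, 398 and 290 RPKM, and its relative Scd1, of type 2 cells, at 38.3, 16.2, 141 and 25.5. Fasn, fatty acid synthase, stood at 32.4 ± 10.8 RPKM. All 3 were highest in control male 1. Sod1, the cytosolic superoxide dismutase, stood at 470, 407, 435 and 458 RPKM, but at 72.5 over merged exons, and Txn1, thioredoxin, at 157 ± 19.2. Among glycolytic genes, Pkm stood at 122 ± 10.8 RPKM, Gapdh at 66.0, 59.5, 57.6 and 67.4 and Ldha at 33.4 ± 4.17 (merged 146).

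Genes of the cell cycle were expressed throughout and had a marked order of libraries. All 27 lay above the median gene, with a median of 14.5 RPKM (merged 24.3). Mki67, a protein of dividing cells, stood at 79.4, 115, 48.6 and 68.4 RPKM, Hmgb2 at 87.1, 104, 54.4 and 67.0, and the helicase subunit Mcm5 at 8.33, 13.7, 4.92 and 7.59. In all 27 of 27 genes control female 2 was highest and control male 1 lowest, with the other 2 libraries between. Of all 12325 genes of at least 5 CPM, 2283 (18.5%) had these extremes. The summed level of the 27 genes was 660, 892, 410 and 563 RPKM. Their list score was 0.09, 0.59, -0.58 and -0.10, the reverse in sign of the type 2 list at both extreme libraries. Replication-dependent histone genes, whose mRNAs lack a poly(A) tail, were low, with a median of 0.817 RPKM over 23 genes.

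Genes often used as references ranged widely in level. Rplp0 stood at 441 ± 34.7 RPKM, B2m at 152 ± 27.9, Ywhaz at 53.5 ± 2.02, Polr2a at 19.5 ± 1.49 and Tbp at 1.56 ± 0.180. The coefficient of variation (CV) left after the counting part is removed, the excess CV, was 3.23% for Actb, 3.17% for Ywhaz and 7.75% for Gapdh. It was 59.5% for Hprt, through control male 2. At the middle rank of the named genes stood Lyar, Slc38a1 and Epb41l5, each at 3.49 RPKM.

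Spread between libraries was described over the 12325 genes of at least 5 CPM in the mean, since below that counting error is large. The median CV was 10.3%, and the median of the CV that counting alone gives was 3.83%. The median excess CV was 9.23%, with 22.7% at the 90th percentile. It was 11.5% in genes of 5 to 20 CPM, 8.17% in genes of 100 to 500 CPM and 10.4% in the 233 genes above 500 CPM. The common biological CV of edgeR over the same libraries was 15.3%, from 16170 genes that passed its own filter on low counts. An excess CV of at least 30% was found in 616 genes (5.0%) and of at least 50% in 79. These values include any difference between the sexes.

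**Figure D3:**
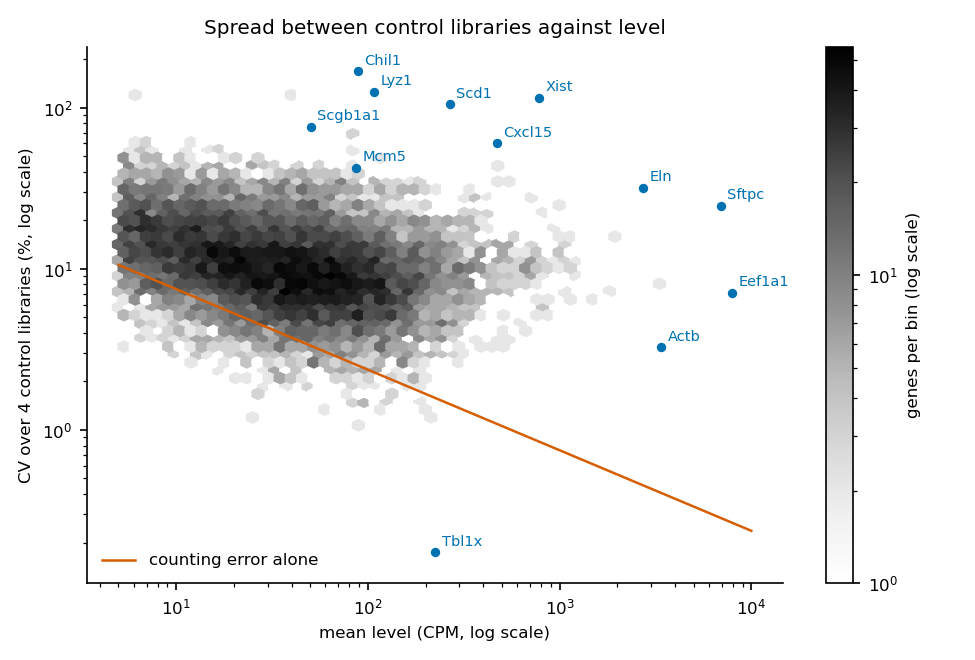
CV over the 4 control libraries against mean CPM, both on log scales, for the 12325 genes of at least 5 CPM; darker cells hold more genes, the red line is the CV that counting alone gives, and named genes are in blue. Most genes lie above the line, with a median CV of 10.3% against 3.83% from counting, Chil1, Lyz1 and Xist lie far above it, and Tbl1x, at 0.174%, lies below it.

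Several secreted proteins of the epithelium were among the widest genes. Among named genes of at least 50 CPM in the mean, the widest was Chil1, a chitinase-like secreted protein. It ran at 24.9, 4.07, 310 and 14.3 CPM, a CV of 168%, and exceeded 50 CPM only in control male 1. A gene high in 1 library can thus pass this limit through that library alone. Next came Lyz1 at 65.5, 17.3, 311 and 39.4 CPM (126%), the sex-linked Xist and Ddx3y, and Scd1 at 185, 78.2, 684 and 124 CPM (105%). Without the sex-linked genes, control male 1 was the highest library in each of these. Sftpd at 82.4%, Scgb1a1 at 76.4%, Hc, which encodes complement C5, at 75.8%, Retnla, a resistin-like secreted protein, at 68.4%, Lyz2 at 62.8% and Cxcl15 at 60.2% followed. The summed level of the type 2 list was 10356, 7196, 13930 and 9284 RPKM, most of it Sftpc, and that of the club list 531, 259, 792 and 536.

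**Figure D4:**
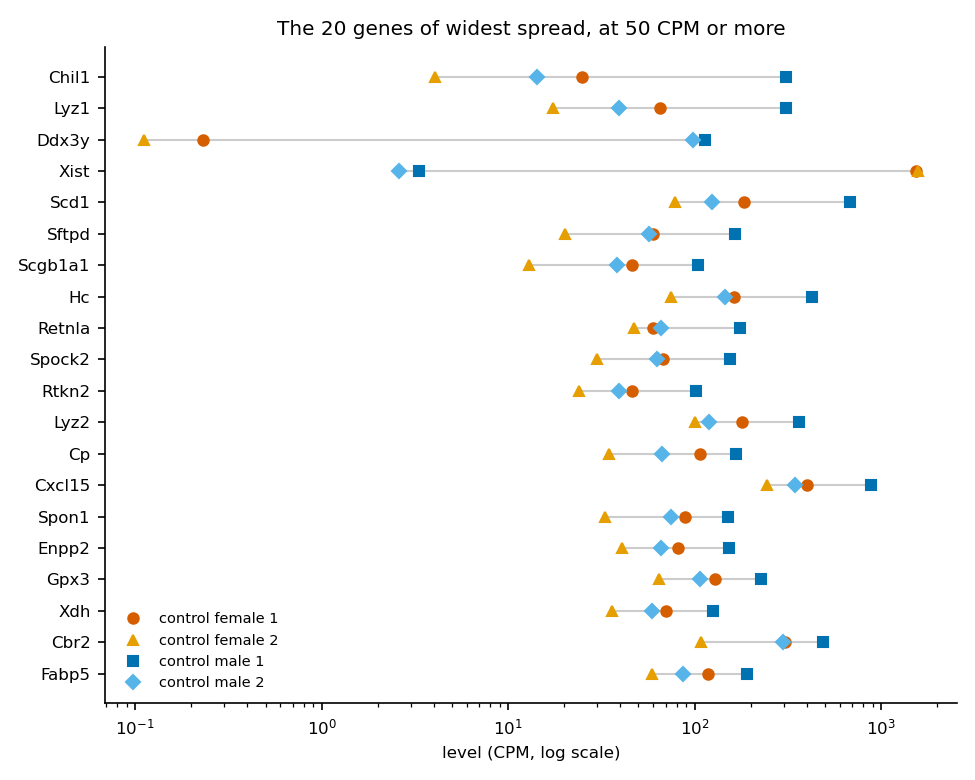
CPM in the 4 control libraries (log scale) of the 20 named genes of widest CV, at 50 CPM or more in the mean. Each library has its own colour and symbol, and a grey line runs from lowest to highest. Control male 1 (squares) lies at the right end of 19 of the 20 lines and control female 2 (triangles) at the left end of 19; Xist is the exception to both, and Xist and Ddx3y split by the sex on the label.

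Extreme libraries were the same for most wide genes. Of the 616 genes with at least 30% excess CV, 255 (41.4%) were highest in control male 1 and lowest in control female 2, and 229 (37.2%) were the reverse. Over all 12325 genes these 2 orders, out of 12 possible, took 16.8% and 18.5%. At 50% excess CV or more, 57 of 79 genes (72.2%) were highest in control male 1 and lowest in control female 2. The first order held the type 2, type 1, club, fluid transport and glucocorticoid lists, whose scores ran from -0.34 or lower in control female 2 to 0.21 or higher in control male 1, and the second held the cell cycle list. Control male 1 was also highest in 14 of 22 endothelial and 11 of 14 macrophage genes of at least 5 CPM, against 3301 of all 12325. Control female 2 was lowest in 9 and 7 of these, against 3842 of all 12325. By their labels control male 1 and control female 2 differ in sex and in replicate number. The type 2 score was 0.01, -0.64, 0.77 and -0.14. Within each sex the library numbered 1 was above that numbered 2, and within each number the male was above the female. The part of sex or of the replicate number in these orders was not tested.

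**Figure D5:**
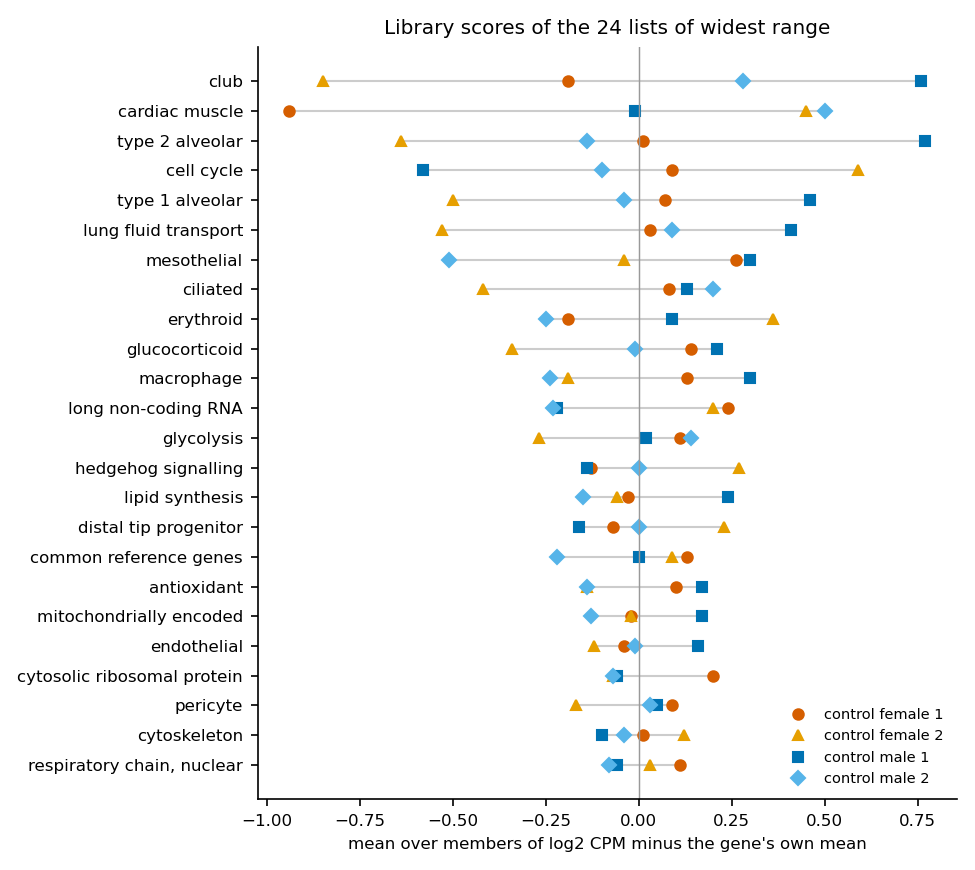
List score of each control library, the mean over members of log2 CPM minus each gene's own mean, for the 24 lists of widest range among those with at least 5 members of 5 CPM; a grey line joins the lowest and highest library and 0 is the mean of the libraries. Control male 1 and control female 2 lie at opposite ends in the club, type 2, type 1 and cell cycle lists, and the cell cycle list has the reverse order.

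At the other end, the narrowest named genes of at least 50 CPM could not be ranked. Tbl1x, a subunit of a corepressor complex, had a CV of 0.174% where counting alone gives 1.58%, and Edf1, a transcriptional coactivator, had 70.5, 70.5, 70.5 and 70.1 CPM, a CV of 0.280%. Values below counting error arise by chance among 4921 genes, so the order of the narrowest has no meaning. Promoters of steady and wide genes of at least 50 CPM differed in base content: the median CpG share was 8.36% in 890 genes of under 5% excess CV and 5.85% in 114 genes of at least 30%. TATAAA before the start was found in 2 of the former (0.225%) and in 5 of the latter (4.39%).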

How the data were processed

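RNA of whole lungs was sequenced; per the labels' protocols, total RNA was treated with DNase and Illumina TruSeq v2 libraries were made. The tools listed by the submitters' processing notes, in no stated role, are STAR 2.5.2b, HTSeq 0.6.1p2, edgeR 3.16.5, Trimmomatic 0.35 and cutadapt 1.13. The sources used here do not give the genome build or annotation, nor how strand and reads shared by several genes were counted. Per the file headers, the deposited table gives for 19150 genes a raw read count and an RPKM per library, and a gene length. Its columns of log2 fold change and mean log2 CPM, of a likelihood ratio score and of p-values, also deposited by the authors, were not used, since no groups were compared. Dividing deposited counts by RPKM and length gave 1 library size per library, 0.982 to 1.03 times the total count.

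Levels of genes are the deposited RPKM. Merged RPKM used the merged exons of GENCODE M21 (GRCm38), matched by Ensembl gene ID, which also gave coordinates; promoters come from RefSeq (GRCm38.p6). CPM was scaled by TMM factors of the 4 controls (0.9853 to 1.024), with edgeR 4.0.16 and DESeq2 1.42.0 in R 4.3.3, and Python 3.11.15 with pandas 2.3.3, numpy 2.4.6 and scipy 1.17.1. The excess CV is the root of the squared CV over libraries minus the counting part, for genes of at least 5 CPM; its calculation was tested on simulated data. List scores used a pseudocount of 0.1 CPM. Depth was 17561012 to 18421167 reads per library, and the lowest total of a gene over the controls was 5 reads. Intervals were not computed, since values rest on the spread between 4 libraries, which may be technical.

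The members and the 58 gene lists (775 of 853 symbols found) were chosen with earlier results of these data known. Named genes were the 30 highest by RPKM, the 20 highest by reads, in each list the 4 highest and those of largest and smallest excess CV, the 20 widest and 10 narrowest genes of at least 50 CPM, 3 at the middle rank and 15 transcription factors, passing over unnamed predicted genes such as Gm23935, a gene of 58 bases at rank 2. Other genes, among them Sftpa1, Sftpb, Lamp3, Ager, Sox9, Tgfbr1, Fgfr2 and Trp63, were chosen after their values were seen. Of the listed genes, 3 are not reported here. A part of the rule that needed protein identity was not run. Alternatives were other scalings and lengths, other filters, sex means removed, and leaving out each library.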

Additional observations from a re-analysis of the deposited data

Results flagged for a closer look

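In a set of 4 libraries, a library was singled out when its gap to the nearest other, divided by the whole range, was above Dixon's 95% critical value, which chance alone exceeds in about 1 of 20 sets. Of 293 genes and 58 lists looked at, 13 genes and 3 lists had such a library, about as many as that rate gives for independent sets. The genes were partly chosen by their spread in the same libraries, and many belong to the lists. That rate therefore need not hold here, and the flags are description only. Values below are in the order control female 1, control female 2, control male 1 and control male 2.

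Control female 1 was high in the summed RPKM of the ribosomal protein list (28395, 23355, 23529 and 23683; gap share 0.935), and in the CPM of Rpl4 (1840, 1613, 1645 and 1623; 0.855), Rps3a1 (1323, 1072, 1064 and 1038; 0.881) and the histone gene Hist2h2be (18.5, 14.3, 14.3 and 14.0; 0.937). It was low in Flt4, a receptor of lymphatic vessels (45.4, 55, 56.1 and 55.5 CPM; 0.902), and in the platelet integrin Itga2b (9.02, 10.3, 10.2 and 10.4 CPM; 0.848), whose spread did not exceed counting error. Control female 2 was high in Mmrn1 of lymphatic vessels and platelets (23.1, 33.7, 24.6 and 22.8 CPM; 0.837).

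Control male 1 was high in Chil1 (24.9, 4.07, 310 and 14.3 CPM; 0.932), Lyz1 (65.5, 17.3, 311 and 39.4 CPM; 0.836), Fasn (604, 557, 1052 and 590 CPM; 0.905) and Retnla (60.1, 47.4, 176 and 65.7 CPM; 0.857). It was low in the summed RPKM of the long non-coding RNA list (584, 605, 414 and 593; 0.889). That list holds Xist, which follows the sex of the library, and without Xist its sums were 501, 520, 414 and 593 and the gap share was 0.489, below the critical value; this was computed after the data had been seen. Control male 2 was low in the summed RPKM of the mitochondrially encoded list (17952, 17901, 17727 and 15133; 0.920), in mt-Nd4 (1458, 1460, 1446 and 1352 CPM; 0.868), in the platelet factor Pf4 (7.98, 7.74, 8.10 and 5.28 CPM; 0.874) and in Edf1 (70.5, 70.5, 70.5 and 70.1 CPM; 0.947), where the whole range is below counting error.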

How the results depend on the processing

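The level of the median gene, 2.67 RPKM, was 12.3 in TPM, a change of scale, and 4.29 over merged exons; 18 of the 30 highest genes and 47 of 58 list medians moved by more than their spread over merged exons, as the length alone changed. Over merged exons, used for the distribution and the lists after the data had been seen, 14400 genes reached 1 RPKM. The number of genes that hold 50% of the summed level was 514 by RPKM and 1275 by CPM. The median excess CV, 9.23%, was 7.48% with sex means removed and 7.48% to 9.64% when each library was left out. The count of genes with at least 30% excess CV, 616, was 1237 from 1 CPM, 310 from 20 CPM and 408 with sex means removed. Leaving out each library in turn gave 256 to 934 genes, with 256 when control female 2 was left out, 367 for control male 1, 836 for control male 2 and 934 for control female 1. The common biological CV, 15.3%, was 12.5% to 17.7% when each library was left out and 13.3% with sex means removed. With sex means removed and the replicate number as a block it was 8.43%, from a fit that left only 1 degree of freedom per gene. This value cannot show how much of the spread went with the number. The labels do not say what the number marks, and no paired analysis of groups was possible because no groups were compared. The number of lists with a median above that of all genes was 42, and 40 over merged exons. The type 2 score differed by 1.41 between control male 1 and control female 2, also with DESeq2 size factors. When control male 2, which stood apart at Hprt, was left out, the median level was 2.67 RPKM, the median excess CV 8.93% and the common biological CV 16.7%.

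With 4 libraries the SD itself is imprecise, and low genes are limited by counting: 765 genes had under 10 reads in every control library. RPKM of different genes also depends on annotated lengths and on how shared reads were counted.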

Other observations

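Nedd4, a ubiquitin ligase, was the 6th gene by reads at 3386, 3329, 3011 and 3009 CPM, but at 157 ± 10.7 RPKM it was 128th per deposited length, which is 20214 bases. Its level was close in all 4 libraries, and only 0.744% of its 50-base windows occur in other genes. Macf1 and Flna, a linker of microtubules to actin and an actin crosslinker, were likewise among the 20 genes with most reads, at 2048 and 1807 CPM, and at 11.4 and 36.9 RPKM (merged 65.2 and 192).

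Immediate-early genes lay on both sides of the median gene. Fos stood at 1.05 ± 0.381 RPKM, Egr1 at 1.07 ± 0.533, Fosb at 0.0177 and Atf3 at 0.592 ± 0.0765, all below the median gene, while Jun stood at 33.8 ± 2.48, Ier2 at 25.4 ± 2.32, Jund at 18.7 ± 3.18, Junb at 9.35 ± 2.5 and Dusp1 at 5.96 ± 1.06, all above it. Heat shock genes of the constant kind were high, with Hsp90ab1 at 243 ± 17.7 RPKM, and the inducible Hspa1a was low at 0.236 ± 0.0912.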
